A study of Mus musculus with 6 samples.

Results

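The metabotropic glutamate receptors and the Homer scaffolds were described through 9 genes, chosen by symbol with earlier results of these data known. The receptor genes were Grm2, Grm3, Grm4, Grm5, Grm7 and Grm8, and the scaffold genes were Homer1, Homer2 and Homer3. They are 9 of 21878 genes in a bulk RNA sequencing table of mouse prefrontal cortex, and all 9 passed the filter on low counts. The 6 libraries come from 3 control mice and 3 Gls1_CamkIIaCre mice (the mutants below). Gls1_CamkIIaCre mice carried CamKIIα-Cre with 1 floxed and 1 wild-type allele of the gene in the group's name, so that Cre removed that allele in forebrain neurons that make it. Controls were littermates that carried CamKIIα-Cre with wild-type alleles only, although the sample labels call them WT, so both groups carried Cre. The series text calls the mutants mosaic and heterozygous, and says that mice with the floxed allele on both chromosomes did not survive. The labels give neither age nor sex. The tissue was not sorted, so fewer cells of a type and less RNA per cell cannot be told apart in any value below.

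Metabotropic glutamate receptors are G protein-coupled receptors that respond to glutamate more slowly than the ion channel receptors do. Group I receptors, of which Grm5 encodes mGluR5, couple to Gq and phospholipase C and release calcium from stores. Group II (Grm2 and Grm3) and group III (Grm4, Grm7 and Grm8) receptors couple to Gi/o, lower cyclic AMP and reduce transmitter release when they sit on nerve terminals. Homer proteins bind the tail of group I receptors through their EVH1 domain and, in their long coiled-coil forms, link them to IP3 receptors and Shank scaffolds. A short Homer1 form, Homer1a, lacks the coiled coil, is induced by neuronal activity and uncouples these links. The comparison asks how the transcripts of this system differ in cortex whose Cre neurons have lost 1 copy of a glutamate-producing enzyme gene.

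Library totals lay between 17987807 and 19330961 counts, and each member had between 122 and 5647 counts per library. The defining markers of cortical excitatory neurons were present in every library, and their summed level lay between 1966 and 2307 CPM (counts scaled to library depth with TMM factors) in controls and between 1994 and 2156 CPM in mutants. Libraries differed in striatal transcripts. The summed level of 10 striatal projection neuron markers was 584, 994 and 671 CPM in controls 1, 2 and 3, and 223, 236 and 255 CPM in the mutants, without overlap. Values after ± are SDs over the 3 libraries of a group (n = 3). Of those 10 markers, 8 fell and none was at 0, among them Drd2, the D2 dopamine receptor (18.9 ± 7.08 against 2.24 ± 0.308 CPM), Adora2a, an adenosine receptor of indirect-pathway neurons (29.9 ± 10.2 against 3.24 ± 0.799 CPM), Gpr6 and Isl1. Striatal neurons are known to make Grm5 and Homer1 as well, and the part of striatal RNA in the members' values was not tested.

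In the deposited length-scaled values, Grm5 was the member of highest level and Homer3 the lowest. In the deposited FPKM values (fragments scaled by length and depth), Grm5 had a mean of 26.7 over the 6 libraries with a range of 25.2 to 27.6, above every library of every other member. Grm2 (mean 19.7 FPKM, range 15.2 to 23.1), Homer1 (18.8, range 17.9 to 20.01) and Grm3 (16.8, range 16.2 to 17.5) followed, and the range of Grm2 covered those of Homer1 and Grm3. Homer1 and Grm3 did not overlap. Homer2 stood at a mean of 8.60 FPKM (range 7.58 to 10.3), Grm7 at 6.31 (5.92 to 6.77), Grm4 at 4.42 (3.41 to 5.35), Grm8 at 3.94 (3.46 to 4.77) and Homer3 at 2.11 (1.54 to 2.41). Among these lower members only Grm4 and Grm8, both group III receptors, overlapped in level. The order depends on the lengths behind the FPKM values, which the sources do not give. With library totals as depth, counts and FPKM implied a control mean of 11151 bases for Homer1, above its longest coding GENCODE transcript (5713 bases). For Grm2 they implied 2752 bases, below its longest (4711 bases). Grm2 was the only member below. All others lay above their longest, among them Grm5 (10741 against 8047 bases) and Grm3 (4786 against 3049 bases).

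**Figure D1:**
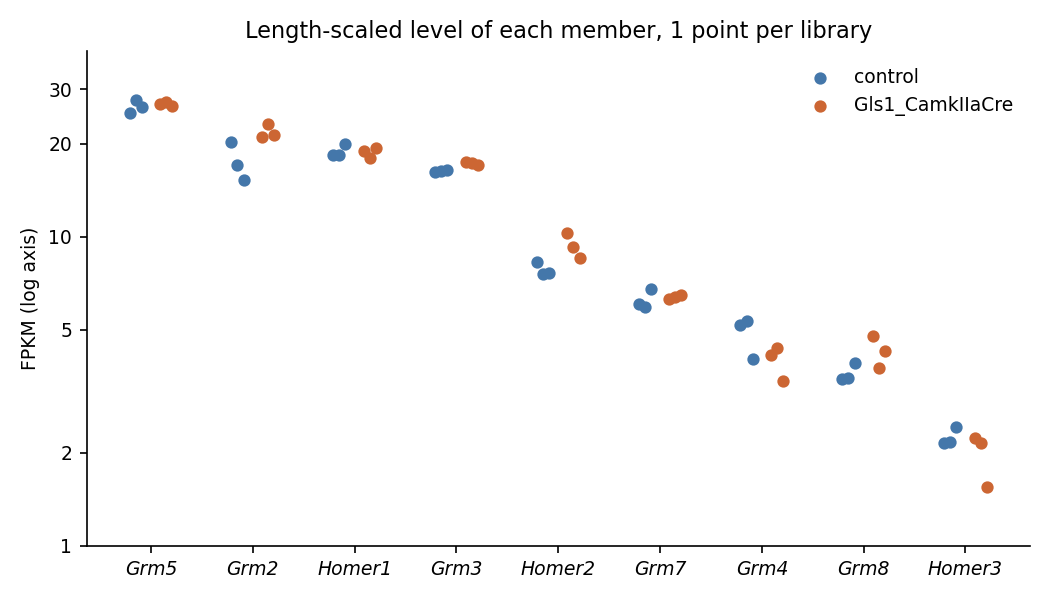
FPKM of each member on a log axis, 1 point per library, control in blue and Gls1_CamkIIaCre in orange, ordered by mean level. Grm5 lies above all others at 25.2 to 27.6 FPKM, Grm2 spreads from 15.2 to 23.1, and Homer3 is lowest at 1.54 to 2.41.

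The DNA upstream of 3 members is shown because Grm2 and Homer2 are the members that rose and Homer1 is the scaffold known for activity-induced transcription. Sequences are from RefSeq (GRCm38.p6), read 5′ to 3′ on the gene's strand and ending at the start site, except that the Homer2 stretch stops where the first GENCODE M21 exon begins. Capitals mark GGGCGG (a GC box, bound by Sp1-type factors) and TGACG (the core of the cyclic AMP response element), each searched on both strands. The windows are chr9:106656110-106656359, minus strand, for Grm2, chr7:81706945-81707175, minus strand, for Homer2, and chr13:93303507-93303756, plus strand, for Homer1.
Grm2: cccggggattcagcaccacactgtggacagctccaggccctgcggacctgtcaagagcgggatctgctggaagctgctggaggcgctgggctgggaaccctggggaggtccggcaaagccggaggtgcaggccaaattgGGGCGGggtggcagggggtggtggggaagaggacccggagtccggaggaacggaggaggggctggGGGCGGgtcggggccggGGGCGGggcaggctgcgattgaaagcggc
Homer2: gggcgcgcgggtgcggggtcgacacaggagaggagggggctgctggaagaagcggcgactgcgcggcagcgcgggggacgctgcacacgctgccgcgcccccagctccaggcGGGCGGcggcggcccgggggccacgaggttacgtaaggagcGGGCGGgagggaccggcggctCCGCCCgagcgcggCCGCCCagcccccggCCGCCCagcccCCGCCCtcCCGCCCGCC
Homer1: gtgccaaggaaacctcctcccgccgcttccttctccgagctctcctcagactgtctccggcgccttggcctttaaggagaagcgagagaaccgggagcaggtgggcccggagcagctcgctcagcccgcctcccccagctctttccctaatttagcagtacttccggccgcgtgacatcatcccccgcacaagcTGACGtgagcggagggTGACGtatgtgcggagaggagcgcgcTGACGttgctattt
In the full 250 bases upstream, Grm2 held 3 GC boxes and Homer2 held 8, of which 7 lie in the stretch printed and some overlap. Homer1 held none. These windows lie at the outermost RefSeq start of each gene. RefSeq has a further start site for Homer2, with 0 GC boxes and 52% GC upstream, and one for Homer1, with 0 GC boxes and 0 TGACG cores. Homer3, which did not pass, held 4 GC boxes, more than Grm2. Its RefSeq start site (70282999) lies inside the span of the gene, so its window is unlike the others. None of its 4 boxes lies in the 78 bases before the first annotated exon in that window. In its window at the outermost start, Homer1 held 3 TGACG cores, starting 56, 40 and 14 bases before the start site, and Grm2 and Homer2 held none. Of 32851 RefSeq windows of the same length, 32.7% held at least 1 GC box, 8.47% at least 3 and 0.155% at least 8, while 17.8% held at least 1 TGACG and 0.688% at least 3. GC content was 71.2% for Grm2, 83.2% for Homer2 and 62.4% for Homer1, against a median of 52.4% over all windows, and GC boxes are made of G and C alone. None of the 3 windows held the complete palindrome TGACGTCA, which 1.55% of all windows held. Matches of letters are descriptions of the sequence and do not show that a factor binds there.

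Grm2 and Homer2 rose in Gls1_CamkIIaCre cortex, and the other 7 members did not pass the test. Calls were made at an adjusted p under 0.05 with edgeR's quasi-likelihood test, adjusted by Benjamini-Hochberg over 14440 genes. The background was 8.24% of all genes called in either direction, 3.95% higher and 4.29% lower, and 11.3% of the 8184 genes with a mean of 20 CPM or more, as 8 of the 9 members had. On log2(FPKM + 1) the calls over all genes split into 116 higher and 558 lower, against 571 and 619 from the counts. The median log2 fold change (Gls1_CamkIIaCre over control) was 0.093 over the 9 members and -0.0024 over all genes tested. Fold changes were above 0 for 7 members and below 0 for Grm4 and Homer1. The groups did not overlap in CPM for 4 of the 9 (Grm2, Grm3, Grm8 and Homer2), against 26.7% of all genes tested.

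**Figure D2:**
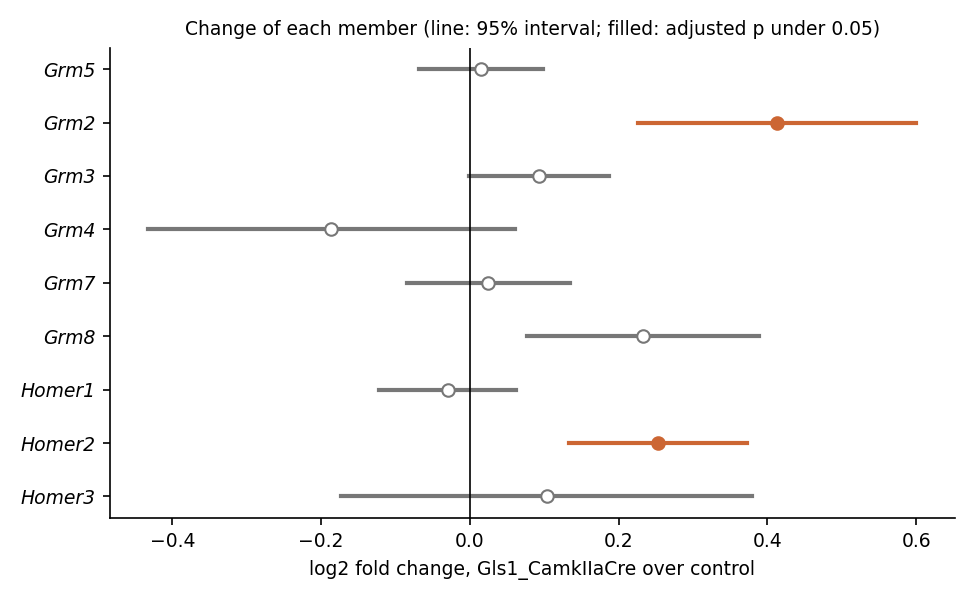
Log2 fold change of each member, Gls1_CamkIIaCre over control, with its 95% interval from edgeR's quasi-likelihood fit, and filled orange points for the 2 members called. Grm2 and Homer2 lie to the right of 0, the interval of Grm8 also lies above 0 although its adjusted p was 0.0595, and Grm5, Grm7 and Homer1 have narrow intervals around 0.

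Grm5, the group I receptor of the list and the partner of Homer proteins, lies on chromosome 7 (87583981 to 88135063, plus strand, GRCm38). It had 270.3, 296 and 281 CPM in controls and 285, 287 and 283 CPM in mutants. The mutant libraries lay inside the control range. The log2 fold change was 0.015 with an SE of 0.040 (adjusted p by edgeR 0.880), and the 95% interval of the fold ran from 0.953 to 1.07. The sign turned to -0.0019 with upper-quartile factors and to -0.015 without control 1, at adjusted p of 0.986 and 0.902 by edgeR.

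Of the group II receptors, which act as brakes on glutamate release and in glia, Grm2 rose and Grm3 did not pass. Grm2 (chromosome 9, 106644534 to 106656109, minus strand) had 54.8, 45.3 and 43.3 CPM in controls and 60.6, 69.5 and 61.2 CPM in mutants. Every mutant library lay above every control library, and control 1 was the nearest of the controls. The means were 47.8 ± 6.11 and 63.7 ± 4.98 CPM, a fold of 1.33 with a 95% interval of 1.17 to 1.52 (adjusted p by edgeR 0.0135, with a log2 fold change of 0.41 and an SE of 0.085). These SDs exceed the counting error alone, which is 1.58 CPM in controls and 1.86 CPM in mutants. Without control 2, the library richest in striatal markers, the log2 fold change was 0.38 with an adjusted p of 0.0597 by edgeR. Calls over all genes also fell in that setting, to 635 from 1190. With each library left out in turn, the log2 fold change of Grm2 ran from 0.35 to 0.52, and only the fit without control 2 lost the call. With limma on log2(FPKM + 1) it was 0.31 with an adjusted p of 0.0795. In FPKM, control 1 (20.2) came close to the lowest mutant library (21.1).

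Grm3 (chromosome 5, 9485236 to 9725352, minus strand), the group II receptor that astrocytes also make, had 77.4, 77.9 and 77.9 CPM in controls and 84.4, 82.2 and 82.0 CPM in mutants. The groups did not overlap, but the distance between them was small. The control SD of 0.270 CPM was below the counting error of 2.02 CPM, so the agreement of these 3 libraries is closer than their depth can resolve. The log2 fold change was 0.093 with an SE of 0.045 (adjusted p by edgeR 0.230), with a 95% interval of the fold from 0.999 to 1.14. The ratio of Grm2 to Grm3 in FPKM, which no library scaling can move, was 1.25, 1.04 and 0.928 in controls and 1.204, 1.33 and 1.25 in mutants. These ratios overlapped, since control 1 lay above mutant 1. They also depend on the length term of each library. For Grm2, counts and FPKM implied 2748 bases in control 1 and 2880 bases in mutant 1. For Grm3 they implied 4843 and 4836 bases. In CPM, which has no length term, the ratio of mutant 1 lay above that of control 1. Of 8 astrocyte markers 3 fell (Gjb6, Gja1 and S100b). The summed level of the list was 4651 to 4948 CPM in controls and 4630 to 4777 CPM in mutants. Gfap had 171 against 111 CPM without overlap and did not pass. Slc1a3 alone of the list had a higher mean in mutants, at 664 against 705 CPM without overlap, and did not pass either. The part of astrocyte RNA in the values of Grm3 and Grm5 was not tested.

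Group III receptors sit mostly on nerve terminals, and none of Grm4, Grm7 and Grm8 passed. Grm8 (chromosome 6, 27275121 to 28135146, minus strand) had 25.3, 24.6 and 26.6 CPM in controls and 32.3, 26.9 and 30.7 CPM in mutants. The groups were separate only by the small gap between control 3 and mutant 2. The log2 fold change was 0.23 with an SE of 0.075 (adjusted p by edgeR 0.0595), and the 95% interval of the fold was 1.05 to 1.31. By edgeR, the adjusted p was 0.0368 with no filter on low counts and 0.0371 without mutant 2, where the log2 fold change was 0.31, and by DESeq2 it was 0.154.

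Grm7 (chromosome 6, 110645349 to 111567230, plus strand) encodes the receptor found at the release site itself. It had 64.6, 64.4 and 71.0 CPM in controls and 65.7, 68.0 and 69.7 CPM in mutants, and the mutants lay inside the control range. Its fold had a 95% interval of 0.943 to 1.097 (adjusted p by edgeR 0.835). Grm4 (chromosome 17, 27422387 to 27513826, minus strand) was the receptor of lower mean in mutants, with 38.1, 38.9 and 31.0 CPM in controls and 33.3, 35.0 and 26.9 CPM in mutants. Control 3 and mutant 3 were the lowest of their groups, and the groups overlapped. The log2 fold change of Grm4 was -0.19 with an SE of 0.11 (adjusted p by edgeR 0.369), with a 95% interval of the fold from 0.741 to 1.04. It lay between -0.28 and -0.079 with a single library left out.

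Among the scaffolds, Homer2 rose and Homer1 and Homer3 did not pass. Homer2 (chromosome 7, 81600481 to 81706925, minus strand), a long coiled-coil scaffold, had 122, 112 and 114 CPM in controls and 151, 136 and 127 CPM in mutants. All mutant libraries lay above all controls, and mutant 3 was only just above control 1. The means were 116 ± 5.38 and 138 ± 12.4 CPM, a fold of 1.19 with a 95% interval of 1.097 to 1.29 (adjusted p by edgeR 0.0116, with a log2 fold change of 0.25 and an SE of 0.057). By edgeR, the log2 fold change was 0.23 with an adjusted p of 0.0572 without control 2, 0.18 with 0.0536 without mutant 1, and 0.27 with 0.0541 without mutant 2. On log2(FPKM + 1) it was 0.22 with a limma adjusted p of 0.0969.

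Homer1 (chromosome 13, 93303757 to 93405129, plus strand) had 202, 207 and 222 CPM in controls and 209, 196 and 212 CPM in mutants. The groups overlapped, with mutant 2 lowest of all libraries. The log2 fold change was -0.030 with an SE of 0.044 (adjusted p by edgeR 0.755), with a 95% interval of the fold from 0.919 to 1.04, and it turned to 0.012 without control 3 and 0.0045 without mutant 2. GENCODE M21 lists 11 coding transcripts of Homer1 with coding lengths from 540 to 1110 bases, short and long forms among them, and counts per gene cannot tell Homer1a from the long forms. Of 10 activity-induced genes, the group to which Homer1a belongs, 4 rose in mutants: the transcription factors Egr4 (15.2 ± 1.43 to 22.4 ± 2.45 CPM), Nr4a3 (18.5 ± 0.618 to 34.0 ± 6.34 CPM), Fosb and Junb. The summed level of these 10 genes was 451, 388 and 353 CPM in controls and 583, 740 and 538 CPM in mutants, highest in mutant 2, the mutant in which Homer1 was lowest.

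Homer3 (chromosome 8, 70282880 to 70294361, plus strand), the least abundant scaffold, had 6.84, 7.07 and 7.26 CPM in controls and 8.03, 8.30 and 6.43 CPM in mutants. Mutants 1 and 2 lay above the controls and mutant 3 below them. The log2 fold change was 0.10 with an SE of 0.13 (adjusted p by edgeR 0.711), with a 95% interval of the fold from 0.887 to 1.30. In FPKM the direction was opposite, with 2.15, 2.17 and 2.41 in controls and 2.23, 2.15 and 1.54 in mutants, and the log2 fold change was -0.13 on log2(FPKM + 1) and -0.19 on log2(FPKM + 0.1). Homer3 is the member whose span overlaps another protein-coding gene, Ddx49 on the opposite strand, and no source says whether counting used strand. The direction of Homer3 differed between the counts and the FPKM values.

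**Figure D3:**
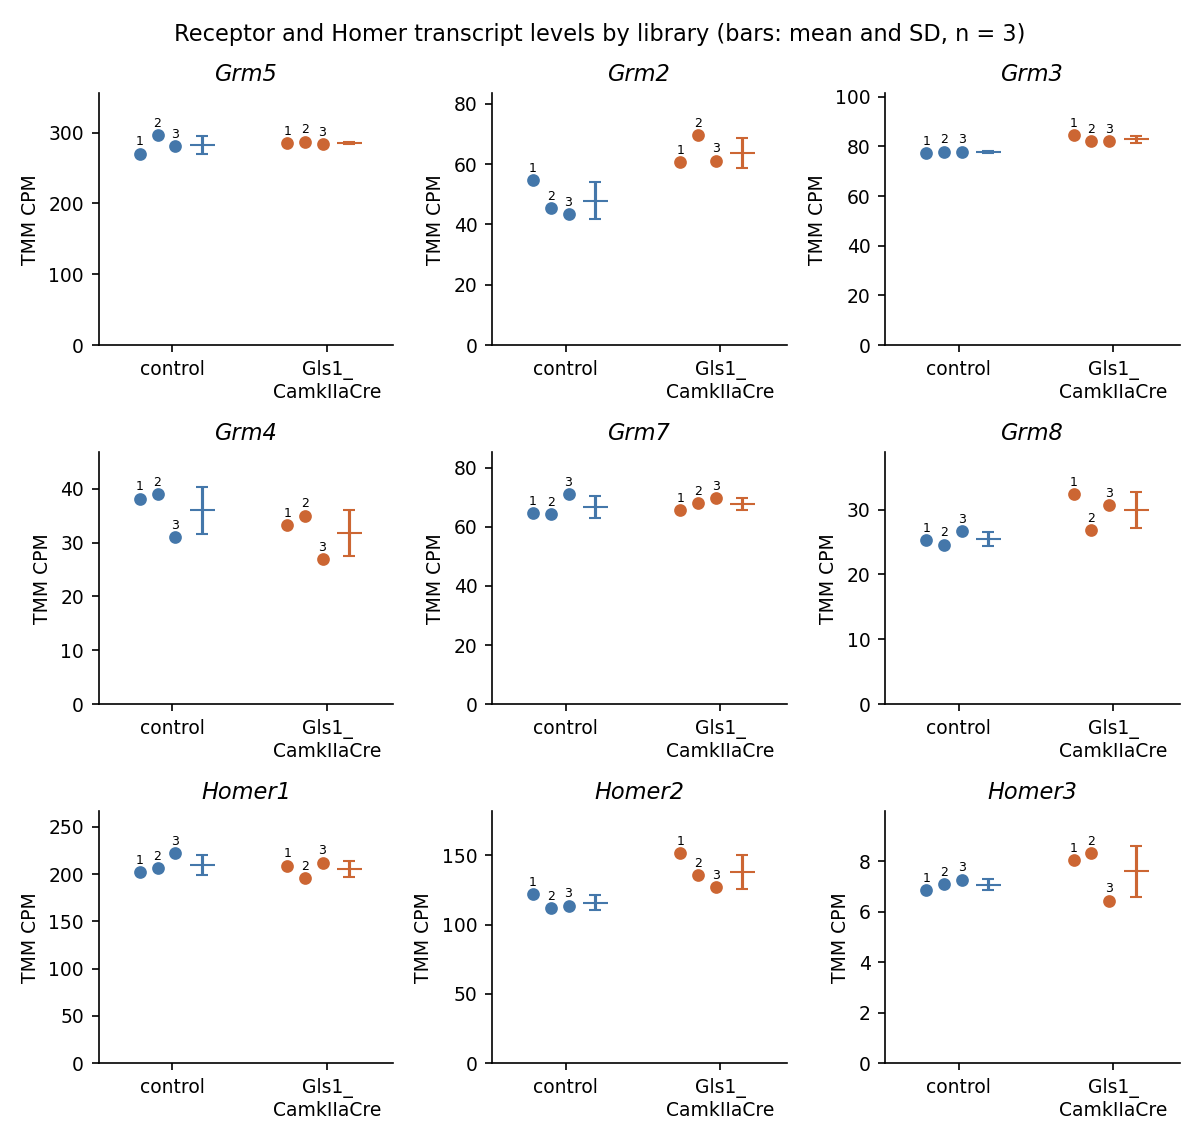
TMM-scaled CPM of each member in each library (points numbered by replicate), with the mean and SD of 3 libraries per group beside them, on axes that start at 0. Grm2 and Homer2 have all 3 mutant points above all 3 control points, Grm3 and Grm8 are separated by small gaps, and Grm5, Grm4, Grm7, Homer1 and Homer3 overlap.

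Within a library, the 3 scaffolds can be set against one another with no effect of library scaling. Homer1 made up 63.8%, 65.3% and 66.5% of the summed Homer FPKM in controls and 60.2%, 61.2% and 65.8% in mutants. Homer2 made up 28.8%, 26.9% and 25.5% in controls and 32.7%, 31.5% and 28.9% in mutants. Homer3 made up 7.44%, 7.71% and 8.02% in controls and 7.07%, 7.34% and 5.25% in mutants. The Homer1 shares overlapped and the Homer2 and Homer3 shares did not, with control 1 and mutant 3 nearly equal for Homer2 and mutant 3 lowest for Homer3. These shares also depend on the length term of each library. The length implied by counts and FPKM differed between groups without overlap for all 3 scaffolds. For Homer3 its mean was 3168 bases in controls and 3854 bases in mutants, whereas the CPM of Homer3 overlapped. Set against Homer1 alone, the FPKM ratio of Homer2 was 0.451, 0.412 and 0.383 in controls and 0.543, 0.515 and 0.440 in mutants, and the groups overlapped. The FPKM ratio of Grm5 to the 3 scaffolds together was 0.876, 0.982 and 0.875 in controls and 0.857, 0.929 and 0.901 in mutants, and the groups overlapped. No test was made of these ratios.

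Of 74 further genes that act with or downstream of these receptors and scaffolds, 11 rose and 5 fell, with a median log2 fold change of 0.057. These are 16 calls, against 8.24% over all genes tested and 11.3% of those with a mean of 20 CPM or more. The list was chosen with earlier results of these data known, so its share is not that of a blind choice. With limma on log2(FPKM + 1) the same list split into 2 higher and 3 lower. It gave 9 calls without control 2, 10 without mutant 1 and 5 without mutant 2, all by edgeR.

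On the Gq arm, which group I receptors drive, 3 of 7 genes rose and none fell. Plcb4, a phospholipase that cuts PIP2, went from 88.4 ± 2.06 to 102 ± 6.06 CPM (adjusted p by edgeR 0.0116, with a log2 fold change of 0.21 and an SE of 0.049). Plcb1, a related phospholipase, also rose, with a log2 fold change of 0.14, as did Dgkz, a diacylglycerol kinase, with 0.17. Gnaq, the G protein subunit upstream of them, did not pass, at 294 against 307 CPM. Among 6 genes of calcium stores, the ryanodine receptor Ryr2 rose by 0.15 and Ryr3 fell by 0.39 on the log2 scale. Ryr3 had 47.1, 62.7 and 50.4 CPM in controls and 42.2, 42.2 and 38.0 CPM in mutants, and was highest in control 2, as were the summed striatal markers and the other pathway genes that fell (Adcy5, Gnb5, Rgs2 and Rgs8). The part of striatal RNA in these values was not tested. The IP3 receptor Itpr1, to which Homer binds, had 852 against 894 CPM without passing. Of 7 endocannabinoid genes, through which group I receptors can quiet nearby terminals, 0 passed by edgeR, DESeq2 or limma voom, and 2 (Cnr1 and Napepld) had an unadjusted edgeR p under 0.05.

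On the Gi/o arm, used by group II and III receptors, 1 of 12 genes rose and 2 fell. Adcy8, a calcium-stimulated adenylyl cyclase, rose by a log2 fold change of 0.30, while Adcy5 fell from 222 ± 34.4 to 139 ± 3.21 CPM (adjusted p by edgeR 0.0345) and Gnb5 fell by 0.16 on the log2 scale. Adcy5 is the main adenylyl cyclase of striatum, and in control 2 it reached 260.1 CPM, against 193 and 213 CPM in the other controls. Of 4 GIRK channel genes, the potassium channels that Gi/o receptors open, Kcnj9 rose from 159 ± 1.94 to 192 ± 9.63 CPM (adjusted p by edgeR 0.000844, with a log2 fold change of 0.27 and an SE of 0.043) and Kcnj3 from 204 to 227 CPM. Kcnj6 had 34.3 against 40.4 CPM without passing, and Kcnj5 was near 0.54 CPM in both groups.

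Of 16 receptor regulators, Adrbk2, the receptor kinase GRK3, rose by a log2 fold change of 0.18, and the RGS proteins Rgs2 and Rgs8, which speed the shutdown of G proteins, fell by 0.38 and 0.17 on the log2 scale. Rgs4, a related regulator that cortical neurons make, had 496 against 489 CPM and did not pass. Among 6 receptor partners Elfn2, an adhesion protein that binds group III receptors across the synapse, rose from 216 ± 5.03 to 243 ± 8.91 CPM (adjusted p by edgeR 0.0148). Of 16 Homer partners, Dlgap1, a postsynaptic scaffold joined to Shank, rose from 699.5 ± 13.0 to 794 ± 11.05 CPM (adjusted p by edgeR 0.00429, with a log2 fold change of 0.18 and an SE of 0.037), and Arhgef11 by 0.15. The Shank genes themselves, which bind Homer directly, did not pass, at 396 against 435 CPM for Shank1, 227 against 247 CPM for Shank2 and 231 against 219.7 CPM for Shank3.

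**Figure D4:**
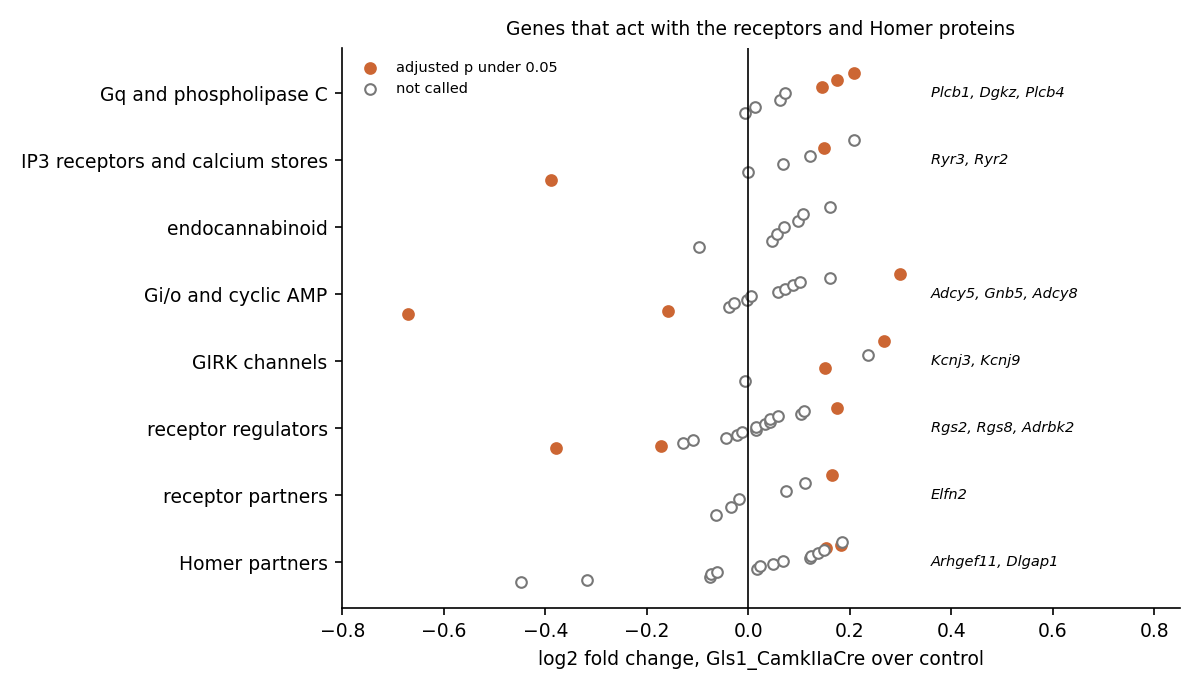
Log2 fold change of 74 genes that act with the receptors or Homer proteins, in 8 groups by role (filled orange points: edgeR adjusted p under 0.05, named at the right). The Gq group has 3 called genes, all above 0, and the called genes farthest below 0 are Adcy5, Ryr3 and Rgs2.

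Markers of other cell types moved with the groups to different extents. Of 6 inhibitory neuron markers, Gad2, a GABA-producing enzyme, fell from 301 ± 11.2 to 243 ± 17.0 CPM and Sst and Slc32a1 also fell, with sums of 1146 to 1250.3 CPM in controls and 969 to 1160 CPM in mutants. Gad1, Pvalb and Vip did not pass, with means lower in mutants for Gad1 and Pvalb and higher for Vip. Gad2 and Slc32a1 were highest in control 2, as were the summed striatal markers, and the part of striatal RNA in their values was not tested. Of 5 oligodendrocyte markers, Mag and Cnp fell (sums 2147 to 2555 against 1962 to 2286 CPM). The oligodendrocyte and astrocyte sums, like the striatal one, were highest in control 2, at 2555 and 4948 CPM. Of 8 excitatory markers Fezf2, a deep-layer transcription factor, rose from 29.4 ± 3.12 to 37.5 ± 3.16 CPM. Bcl11b of the same list lay in the other direction, at 130 against 109 CPM without overlap. It did not pass (adjusted p by edgeR 0.0651, with a log2 fold change of -0.25). Bcl11b too was highest in control 2, and the part of striatal RNA in its values was not tested. Of 5 microglia markers, 0 passed by edgeR, DESeq2 or limma voom, and 2 (Tmem119 and Csf1r) had an unadjusted edgeR p under 0.05 (sums 338 to 361 against 324 to 351 CPM). None of these lists held a gene at 0, and their part in the values of Grm2 and Homer2 was not tested.

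**Figure D5:**
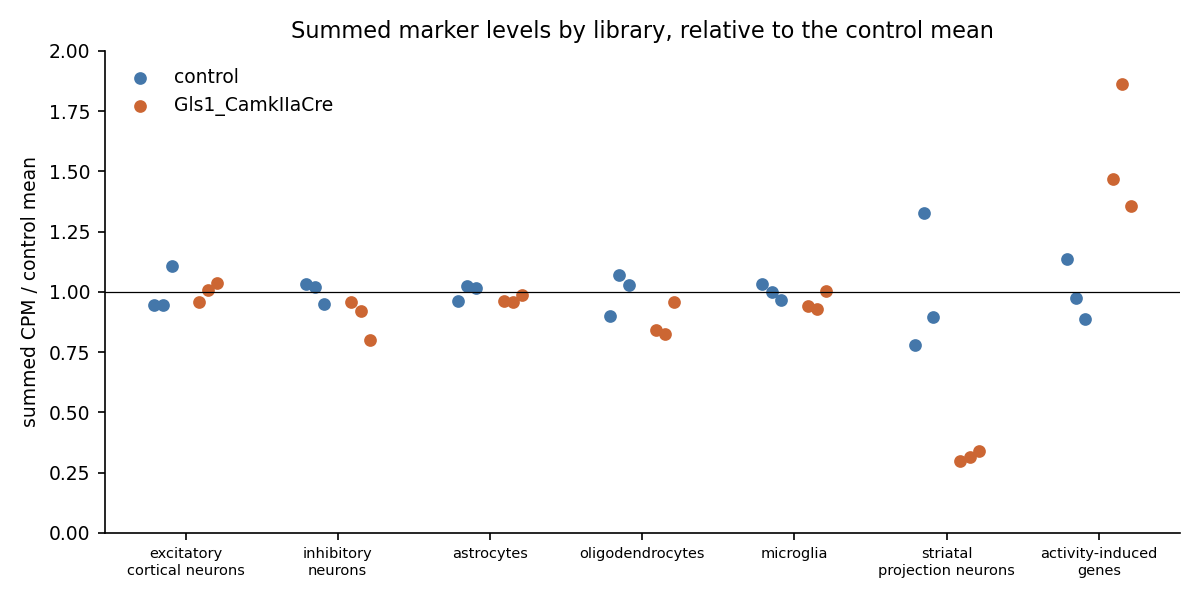
Summed CPM of 7 fixed lists in each library, divided by the list's control mean, 1 point per library. Striatal markers lie far below 1 in all mutants and vary most among controls, activity-induced genes lie above the controls in all mutants, the inhibitory neuron list is lowest in mutant 3 (969 CPM, against 1146 to 1250.3 CPM in controls) and the oligodendrocyte list in mutants 1 and 2 (2008 and 1962 CPM, against 2147 to 2555 CPM).

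The genes whose levels ran most like Grm2 over the 6 libraries were Fkbp4 (Pearson r = 0.989 on log2(CPM + 1)), Ypel4 (0.985) and Eya3 (0.984). They came from 10033 candidates, of which 185 had an r above 0.9. Candidates had a mean of 10 CPM or more, and members, unnamed gene models and sex-linked genes were left out. For Homer2 the most alike were Ppp1r12a (0.988), Mdm2 (0.987) and Mpp2 (0.985), with 169 candidates above 0.9. None of these 6 genes passed the test between groups, with adjusted p by edgeR from 0.0530 for Mpp2 to 0.650 for Fkbp4. With 6 libraries that share 2 groups and their depth, such values describe likeness in these libraries only.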

How the data were processed

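Per the labels' protocols, libraries of total RNA from prefrontal cortex (TRIzol) were prepared with the SMARTer mRNA-Seq kit. The deposited tables hold raw counts and, for the same 21878 genes, the authors' FPKM values, both made on GRCm38 (mm10) per the submitters' processing notes. Which aligner, counter, strand setting and FPKM tool were used is not given in the sources used here.

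Deposited counts were tested with edgeR 4.0.16 (R 4.3.3), with TMM factors, filterByExpr and the robust quasi-likelihood test, 3 Gls1_CamkIIaCre against 3 control libraries, with no covariate and Benjamini-Hochberg adjustment over the 14440 genes left. The procedure was tested on simulated data. Labels name separate mice. Libraries of a group differed by a chi-square per degree of freedom of 2.27 to 4.16, so none was the same library sequenced again. That value cannot tell separate preparations of the same mouse from separate mice. Named genes were all members, called genes of the pathway list, up to 4 marker genes of smallest p per list and the 3 genes most correlated with each called member. Genes named beside them (Gnaq, Itpr1, Cnr1, Napepld, Kcnj6, Kcnj5, Rgs4, the Shank genes, Slc1a3, Gad1, Pvalb, Tmem119 and Csf1r) include some chosen after their values were seen. The members and lists were chosen with earlier results of these data known. The targeted gene and some listed genes are not reported here. Loci come from RefSeq (GRCm38.p6), and promoters were found for 7 of 9 members. Alternatives used DESeq2 1.42.0, limma 3.58.1 (voom, and log2(FPKM + 1) or log2(FPKM + 0.1)), other scaling factors, no filter, a mean of 50 counts, a non-robust fit, the replicate number as a block and each library left out.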

Additional observations from a re-analysis of the deposited data

How the results depend on the processing

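Over 16 alternatives for each member, 127 of 144 values kept their sign and their side of the threshold, 8 lost a call (3 for Grm2 and 5 for Homer2), 3 gained one (all Grm8) and 6 changed sign, none of the latter called. With a library left out, log2 fold changes ran from -0.015 to 0.052 for Grm5 and from -0.058 to 0.012 for Homer1. The changes of sign were Grm5 with upper-quartile factors (-0.0019) and without control 1 (-0.015), Homer1 without control 3 (0.012) and without Gls1_CamkIIaCre 2 (0.0045), and Homer3 on log2(FPKM + 1) (-0.13) and log2(FPKM + 0.1) (-0.19). The members called numbered 0 by limma on both FPKM scales and between 0 and 2 by edgeR when a library was left out, with 0 without control 2 and 1 without Gls1_CamkIIaCre 1. In each of the settings with 0, Grm2, Grm8 and Homer2 had an unadjusted p under 0.05, and DESeq2 and limma voom on all counts called 2 members each. All genes called numbered 674 on log2(FPKM + 1), 729 on log2(FPKM + 0.1) and 415 to 1098 with a library left out, and pathway genes called numbered 5, 5 and 5 to 15. The cause of these shifts was not tested. Sums of FPKM per library were 238924 to 243144 in mutants and 249602 to 252272 in controls.

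Replicate numbers were not taken as pairs, since the titles do not say that they pair mice. Deviations of same-numbered libraries correlated at 0.15, -0.042 and 0.18. The libraries numbered 1 and 3 each correlated best with their own number, and those numbered 2 did not. Whether same-numbered libraries share a batch was not tested. With the replicate block in edgeR 3 members were called, Grm2, Homer2 and Grm8 (adjusted p = 0.0272), with 1758 genes in all and 23 pathway genes, against 1190 and 16 without the block.

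Depth limits Homer3 most, where counting error alone is 0.608 CPM at 7.06 CPM. Depth and 3 mice per group leave changes within the printed intervals unresolved.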
